A study of Homo sapiens with 6 samples.

Results

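The genes described here encode the enzymes and small proteins of the glutathione, peroxiredoxin and thioredoxin systems. They were chosen by symbol in the probe annotation: the glutathione transferases (GST and MGST symbols), the glutathione peroxidases (GPX), the peroxiredoxins (PRDX), every symbol beginning with TXN or GLRX, and a short list of single genes that includes GSS, GSR, SRXN1, CAT and HMOX1. The rule found 62 of the 14884 genes that the annotation named, on 64 probe sets. Where a gene had 2 probe sets, as TXNIP and GPX6 did, the one with the higher mean over all arrays was used. GCLC, GCLM, GSTZ1, NQO1, PRDX5, SOD1, SOD2 and TXNDC5 also meet the rule but were not among the named probe sets and were not analysed here.

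RNA levels were read from Affymetrix Human Gene 2.0 ST arrays of RPMI8226, KMS11 and U266, established cell lines derived from multiple myeloma, a cancer of plasma cells. All lines were grown in RPMI1640 medium and transfected with HiPerFect, a lipid reagent. Each received 100 nM of either a miR-10a mimic, a synthetic double-stranded copy of the microRNA, or a scrambled control, and was collected 48 h later. The 6 arrays cover each line once with each treatment, so every group is 1 array of 1 line. The control and mimic arrays of a line therefore served as its 2 arrays when lines were compared, and the 3 lines served as replicates when treatments were compared. The labels name no separate cultures, so the p-values measure only the spread between these arrays, which may be partly technical. The cell line field of the RPMI8226 pair is spelled RPI8226, and the sample titles, which read RPMI8226, were followed.

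Glutathione is a tripeptide thiol that cells make and recycle to keep proteins reduced; transferases couple it to foreign or oxidised molecules, and glutathione peroxidases use it to remove peroxides. Thioredoxins and glutaredoxins reduce protein disulfides, and peroxiredoxins remove hydrogen peroxide with electrons passed on from thioredoxin and its NADPH-dependent reductase. Plasma cells secrete large amounts of disulfide-bonded antibody, and redox proteins of the endoplasmic reticulum are part of that work.

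The agent of the study was miR-10a, and its sequences are shown because its seed, in capitals (bases 2 to 8), is the part by which a microRNA finds its targets. The labels do not state which arm the mimic carried, so both are given as in RefSeq (GRCh38.p14). The 5p arm lies at chr17:48579904-48579926 and the 3p arm at chr17:48579864-48579885, both on the minus strand.
hsa-miR-10a-5p: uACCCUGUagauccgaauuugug
hsa-miR-10a-3p: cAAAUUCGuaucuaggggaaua

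The deposited values are log2 expression levels, with array medians of 3.61 to 3.66 over 53617 probe sets. Arrays of 1 line correlated at r = 0.992 to 0.993 over the tested genes and arrays of different lines at 0.715 to 0.779. Tests covered the 7442 named genes whose mean over the 6 arrays reached the median of all named genes, 4.70. The table carries no detection calls, so whether a low value stood above background is unknown, and summaries of this kind can compress the changes of weakly expressed genes. Of the 62 redox genes, 38 passed this filter and 24 did not. TXNDC17 (mean 4.72), GSTA1 (4.76) and GSTT1 (4.78) lay just inside it, and TXNRD3 (4.58) and GSTO2 (4.39) just outside. For 3 genes only 1 line mean reached the filter value: GPX7 (mean 5.12) passed through RPMI8226, GSTP1 (5.64) through U266 and GSTA1 through KMS11. Such genes had to differ between lines to be tested, so the counts of tested genes below are descriptions. GPX7, GSTP1 and GSTA1 are given with the tests made without the filter. In other redox genes 1 line mean lay under 4.70: GPX1, GSTT1 and TXNDC17 in KMS11, and GLRX, GSTA4, MGST2 and TXNRD2 in RPMI8226. Folds against that line are uncertain, since its level was not shown to stand above background.

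The 3 lines differed widely in these genes. The largest differences were those of GPX7, high in RPMI8226 alone, GSTP1, high in U266 alone, and TXNIP, which stepped down from RPMI8226 to KMS11 to U266. In the limma F test over the 3 lines, 35 of the 38 tested redox genes passed an adjusted p of 0.05 (92.1%), against 82.4% of all tested genes. Most tested genes therefore differed between these lines, and the redox genes shared that. Their median range between the highest and lowest line mean was 0.79 log2 units, against 0.77 over all tested genes, and 14 of 38 spanned at least 1 log2 unit (36.8% against 36.4%). TXN2 (adjusted p = 0.0667), TXNDC9 (0.0783) and GLRX5 (0.262) did not pass. Without the filter, 42 of 62 redox genes passed, against 50.8% of all named genes. Of the 35 calls, 32 were kept under every alternative that tested the gene; the other 3 are given with GSS, GSTA1 and TXNDC11 below.

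**Figure D1:**
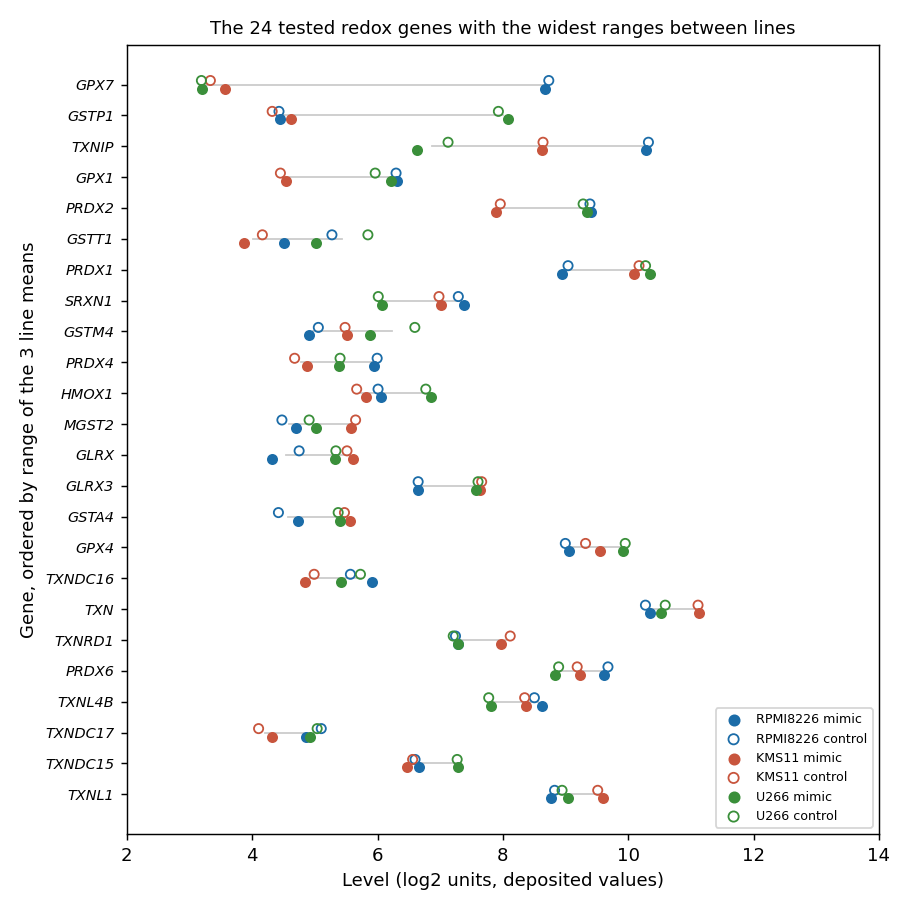
Deposited log2 level (horizontal axis) of the 24 tested redox genes with the widest range of line means, 1 row per gene in order of that range. Open circles are control arrays, filled circles mimic arrays, colours are the 3 lines, and the grey line joins the lowest and highest line means. GPX7, GSTP1 and TXNIP spread over more than 3 log2 units, whereas control and mimic arrays of 1 line lie close together for most genes.

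Compared in pairs, RPMI8226 was higher than KMS11 for 13 of the 38 tested genes and lower for 18, where 29.4% and 35.6% of all tested genes were called higher and lower. RPMI8226 was higher than U266 for 11 and lower for 16 (background 32.4% and 35.1%). U266 was higher than KMS11 for 11 and lower for 15 (background 29.8% and 34%). The pair counts include 2 genes that did not pass the F test. TXN2 was called higher in RPMI8226 than in U266 (limma contrast, adjusted p = 0.0495, and 0.117 without the filter). TXNDC9 was called lower in U266 than in KMS11 (0.0497, and 0.102 without the filter). These contrasts share arrays and are not independent of one another. In either direction, 31 were called between RPMI8226 and KMS11 (background 65%), 27 between RPMI8226 and U266 (67.4%) and 26 between U266 and KMS11 (63.8%). Of these, 21, 22 and 21 respectively stayed called in each of the 6 fits that left out 1 array, and no called contrast changed sign.

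RPMI8226 stood below both other lines for 12 genes (background 21.7%): the glutaredoxins GLRX and GLRX3, the transferases GSTA4, GSTK1, GSTM4 and MGST2, the peroxiredoxins PRDX1 and PRDX3, and GPX4, GSS, TXN and TXNRD2. That count was 7 without the RPMI8226 control array or the KMS11 mimic array, and 7 to 10 over the 6 fits without 1 array. It stood above both for 7 (17.6%): CAT, GPX7, PRDX4, PRDX6, SRXN1, TXNDC11 and TXNIP. KMS11 was highest for 8 (19.2%), TXN and its reductase TXNRD1 among them, and lowest for 7 (14.4%), including GPX1, PRDX2 and HMOX1. U266 was highest for 6 (18.6%), including GSTP1, GPX4 and HMOX1, and lowest for 7 (18.9%), including GSR, CAT, SRXN1 and TXNIP.

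**Figure D2:**
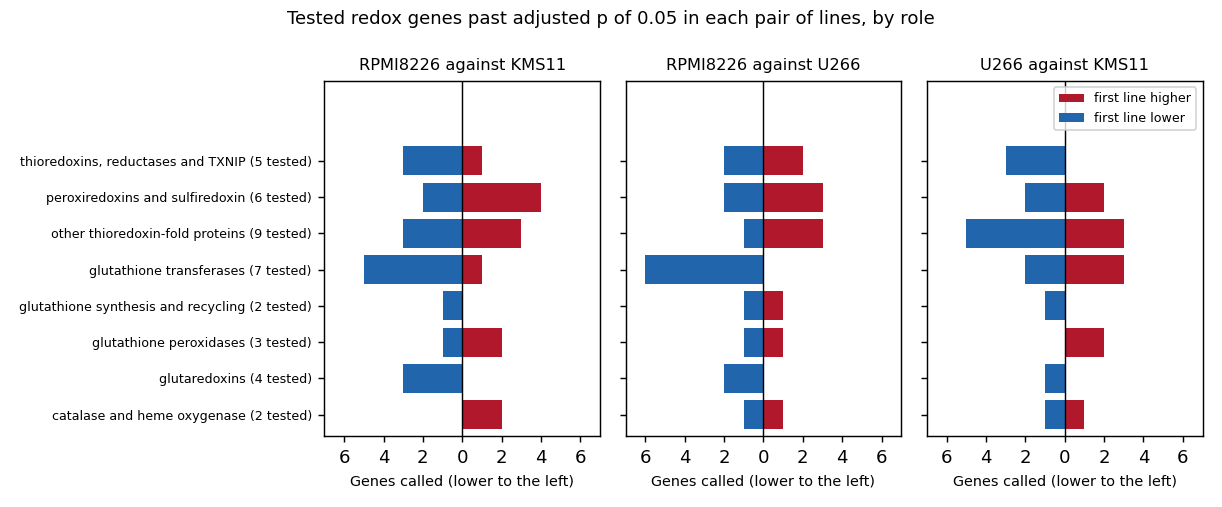
Number of tested redox genes past an adjusted p of 0.05 in each pair of lines, by role; bars to the right count genes higher in the first-named line and bars to the left genes lower in it. For the transferases, RPMI8226 was lower than KMS11 for 5 and higher for 1, and lower than U266 for 6 and higher for 0. Of all tested genes, 35.6% and 35.1% were lower. Of the 4 glutaredoxins, RPMI8226 was lower than KMS11 for 3 and lower than U266 for 2, and higher for 0 in both. GLRX5, not called, had its highest line mean in RPMI8226.

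Glutathione is finished by GSS, glutathione synthetase, and its oxidised form is reduced by GSR, glutathione reductase. GSR read 8.07 in the control and 8.05 in the mimic array of RPMI8226, 8.24 and 8.28 in KMS11, and 7.63 and 7.64 in U266; control is given before mimic throughout. U266 was lower than KMS11 (1.54-fold, adjusted p = 0.000909) and RPMI8226 (1.34-fold, 0.00403), with no overlap. GSS read 6.97 and 6.90, 7.14 and 7.22, and 7.24 and 7.19 in the same order, with RPMI8226 lowest by at most 1.21-fold. Its F test (adjusted p = 0.0428) was lost in every fit without 1 array (0.059 to 0.230), without the filter (0.113) and under quantile normalization (0.155).

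Of 23 transferase genes, 7 were tested and all 7 passed the F test, where 82.4% of all tested genes did. GSTP1 and GSTA1 reached the filter through 1 line alone and so had to differ between lines. Without the filter, 13 of 23 passed, where 50.8% of all named genes did. RPMI8226 was lower than KMS11 for 5 of the 7, but for 2 without the KMS11 mimic array and 3 without the RPMI8226 mimic array. It was lower than U266 for 6, and for 4 without the RPMI8226 control or the U266 control array. GSTP1, the pi-class transferase, showed the widest difference: 4.43 and 4.44 in RPMI8226, 4.32 and 4.62 in KMS11, and 7.93 and 8.08 in U266. Only the U266 arrays were high. In the tests over all named genes, without the filter, RPMI8226 minus U266 was -3.57 log2 units (SE 0.11, adjusted p = 5.71e-06) and U266 minus KMS11 was 3.54 (7.25e-06), whereas RPMI8226 and KMS11 differed by -0.03 (0.857). The RPMI8226 and KMS11 values lie under the filter and were not shown to stand above background, so no fold is given. The RefSeq promoter of GSTP1, chr11:67583562-67583811 on the plus strand (GRCh38.p14), is shown because it carries a match, in capitals, to the core of the antioxidant response element, TGACNNNGC, the element bound by NRF2. The match starts 66 bases before the annotated start.
GSTP1: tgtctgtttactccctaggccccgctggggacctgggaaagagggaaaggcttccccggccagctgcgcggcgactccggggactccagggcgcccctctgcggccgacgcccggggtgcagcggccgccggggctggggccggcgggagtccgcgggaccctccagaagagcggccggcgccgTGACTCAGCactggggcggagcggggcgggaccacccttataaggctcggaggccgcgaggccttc

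Among the 250 bases upstream of each annotated start, searched on both strands, the core was found for 8 of the 49 redox genes with a promoter entry (16.3%) and for 11% of all 27305 promoters, so these letters are common. A match is a description of the sequence and not a binding site. The genes GPX2, GSTM1, GSTM5 and GSTO1, under the filter, had a match. Besides GSTP1, the tested genes with a match were GSTA4, TXNL1 and TXNRD1. They passed the F test, as 82.4% of all tested genes did, so this does not set them apart. Their matches are shown with 10 flanking bases on each side because these genes were tested. The stretches lie at chr6:52995275-52995303 (minus strand), chr18:56638583-56638611 (minus strand) and chr12:104215670-104215698 (plus strand).
GSTA4: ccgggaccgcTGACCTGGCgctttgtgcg
TXNL1: ctccctggcgTGACTCGGCactgagagtc
TXNRD1: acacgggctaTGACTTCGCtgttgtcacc

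GSTT1, the theta-class transferase, read 5.27 and 4.51 in RPMI8226, 4.16 and 3.87 in KMS11, and 5.85 and 5.01 in U266. KMS11 was lowest on both arrays, while RPMI8226 and U266 overlapped. U266 exceeded KMS11 2.66-fold (adjusted p = 0.000393) and RPMI8226 did so 1.84-fold (0.00259). The KMS11 levels lie under the filter value, so these folds are uncertain. The difference of RPMI8226 from U266, -0.54 (0.0176), was lost without the RPMI8226 control array (-0.64, 0.0503), the RPMI8226 mimic array (-0.44, 0.123) or the U266 control array (-0.38, 0.0846). GSTM4, of the mu class, read 5.06 and 4.90, 5.48 and 5.51, and 6.60 and 5.88, so U266 was highest but its own arrays lay 0.71 apart. U266 exceeded RPMI8226 2.40-fold (0.00128). U266 minus KMS11 was 0.74 (0.0121), 0.42 without the U266 control array (0.031), and not called without the KMS11 control array (0.51, 0.0709). RPMI8226 minus KMS11, -0.52 (0.0435), was not called without the KMS11 mimic array (-0.29, 0.259), either RPMI8226 array (-0.42 without the control and -0.61 without the mimic) or the filter (0.0734).

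MGST2, a membrane-bound transferase, read 4.48 and 4.70 in RPMI8226, 5.65 and 5.58 in KMS11, and 4.91 and 5.01 in U266. KMS11 was highest, 2.04-fold above RPMI8226 (adjusted p = 0.00028) and 1.57-fold above U266 (0.00189). RPMI8226 minus U266, -0.37 (0.0164), was not called without the RPMI8226 control array (-0.27, 0.111), the U266 control array (-0.39, 0.0501) or the U266 mimic array (-0.36, 0.0631). GSTA4, which acts on lipid peroxidation products, read 4.42 and 4.73, 5.47 and 5.57, and 5.37 and 5.40. RPMI8226 alone was low, by 1.92-fold against KMS11 (0.000398) and 1.76-fold against U266 (0.000689). The RPMI8226 means of MGST2 and GSTA4 lie under the filter value, so the folds against that line are uncertain. Of the other tested transferases, GSTA1 ranged over 0.70 log2 units and GSTK1 over 1.40-fold between line means. Tested without the filter, GSTA1 had an F test adjusted p of 0.0162. Its RPMI8226 minus KMS11 difference was -0.51 (adjusted p = 0.0344 without the filter). In the filtered fits its F call (0.00818) was lost without the KMS11 mimic array. Its RPMI8226 minus KMS11 call (0.0173) was lost without the KMS11 mimic (-0.42) or RPMI8226 mimic array (-0.28). RPMI8226 minus KMS11 for GSTK1, -0.42 (0.00568), was not called without the KMS11 mimic array (-0.36).

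The other 16 transferase genes had means under the filter: GSTA2, GSTA3, GSTA5, GSTM1, GSTM2, GSTM2P1, GSTM3, GSTM5, GSTO1, GSTO2, GSTT2, GSTT2B, GSTT4, GSTTP2, MGST1 and MGST3. MGST1 read 4.70 and 4.74 in RPMI8226, 4.32 and 4.43 in KMS11, and 3.04 and 2.68 in U266, and GSTM3 read 2.62 and 2.46, 4.44 and 3.92, and 2.58 and 2.97. MGST1 was thus lowest in U266 and GSTM3 highest in KMS11, with unfiltered F tests at adjusted p = 0.000208 and 0.00156. The genes of the GSTA and GSTM clusters, and GSTT2 and GSTT2B, are related copies whose sequences were not compared here. A probe set may read more than 1 of them, so their separate levels are uncertain. This limit also holds for the tested GSTA1, GSTA4 and GSTM4.

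Of 8 glutathione peroxidases 3 were tested, and the order of the lines differed among them. GPX7, a peroxidase of the endoplasmic reticulum that takes part in oxidative protein folding, read 8.73 and 8.67 in RPMI8226, 3.33 and 3.56 in KMS11, and 3.19 and 3.20 in U266. Every KMS11 and U266 value lay under the median of its array. In the tests over all named genes, without the filter, RPMI8226 exceeded U266 by 5.51 log2 units (SE 0.11, adjusted p = 1.91e-06) and KMS11 by 5.25 (3.29e-06), the widest range of all 62 redox genes. U266 minus KMS11 was -0.25 (0.144). No fold is given, since the low levels were not shown to stand above background. The GPX7 promoter, chr1:52602121-52602370 on the plus strand (GRCh38.p14), is shown because this gene varied most. It holds 23 CpG dinucleotides, in capitals, where the median promoter of the same length holds 11 and the median redox-gene promoter 17. Methylation was not measured on these arrays.
GPX7: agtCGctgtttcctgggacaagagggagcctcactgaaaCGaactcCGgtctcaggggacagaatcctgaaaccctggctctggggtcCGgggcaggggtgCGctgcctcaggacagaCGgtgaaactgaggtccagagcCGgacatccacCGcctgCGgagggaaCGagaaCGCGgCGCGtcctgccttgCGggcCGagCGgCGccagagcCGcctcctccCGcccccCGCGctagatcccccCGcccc

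GPX1, the main cytosolic glutathione peroxidase, read 6.30 and 6.32 in RPMI8226, 4.45 and 4.55 in KMS11, and 5.96 and 6.21 in U266. KMS11 was low on both arrays, 3.50-fold under RPMI8226 (adjusted p = 2.83e-05) and 3.01-fold under U266 (4.78e-05). The KMS11 levels lie under the filter value and were not shown to stand above background, so these folds are uncertain. GPX4, which reduces lipid peroxides and guards against ferroptosis, read 9.0 and 9.06, 9.32 and 9.56, and 9.95 and 9.92. It was highest in U266, 1.88-fold over RPMI8226 (0.000391) and 1.41-fold over KMS11 (0.00514). The RPMI8226 minus KMS11 difference of -0.41 (0.0109) was not called without the KMS11 mimic array (-0.30, 0.0935) or either RPMI8226 array (-0.43 without the control, 0.0508; -0.39 without the mimic, 0.0649). GPX2, GPX3, GPX5, GPX6 and GPX8 fell under the filter.

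**Figure D3:**
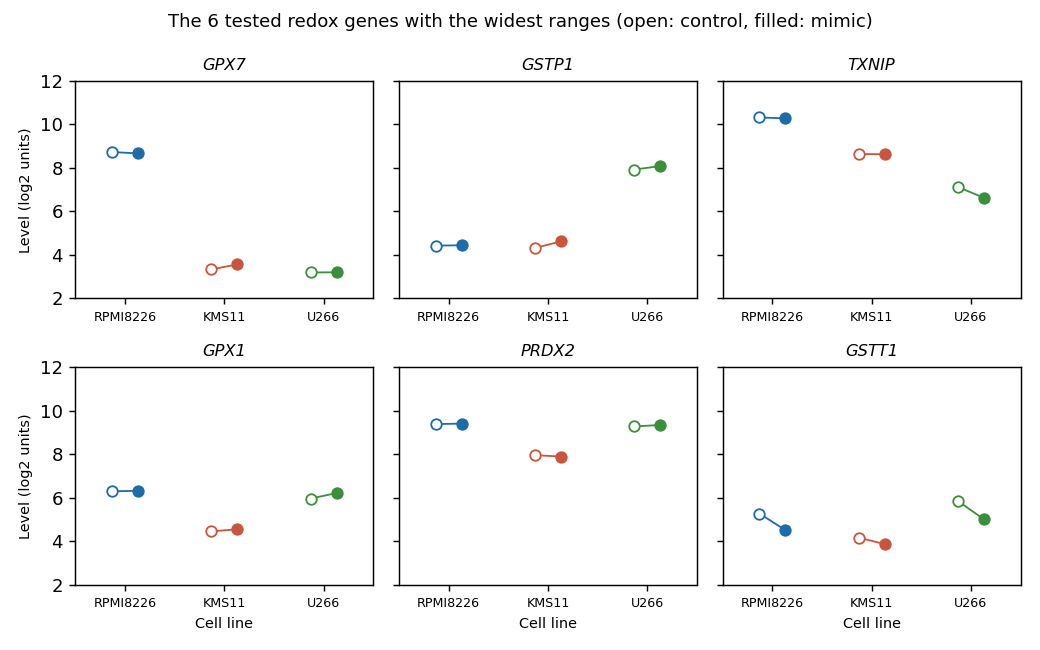
Deposited log2 level (vertical axis, the same in every panel) of the 6 tested redox genes with the widest range of line means, by cell line (horizontal axis). Each open circle is the control array of a line, joined to the filled circle of its mimic array; RPMI8226 stands alone at 8.73 and 8.67 for GPX7, U266 stands alone at 7.93 and 8.08 for GSTP1, and KMS11 is low for GPX1 and PRDX2.

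All 6 genes of the peroxiredoxin group, PRDX1, PRDX2, PRDX3, PRDX4, PRDX6 and SRXN1, were tested. All 6 passed the F test, where 82.4% of all tested genes did, and the lines stood in different orders. PRDX2, a cytosolic peroxiredoxin, read 9.39 and 9.41 in RPMI8226, 7.96 and 7.89 in KMS11, and 9.28 and 9.35 in U266. KMS11 was low on both arrays, 2.78-fold under RPMI8226 (adjusted p = 4.03e-05) and 2.62-fold under U266 (5.21e-05). PRDX1, the other main cytosolic form, read 9.04 and 8.95, 10.17 and 10.09, and 10.28 and 10.35. Here RPMI8226 was the low line, 2.20-fold under KMS11 (0.000121) and 2.50-fold under U266 (5.88e-05).

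PRDX4, the peroxiredoxin of the endoplasmic reticulum, read 5.99 and 5.95 in RPMI8226, 4.68 and 4.87 in KMS11, and 5.40 and 5.39 in U266. The lines did not overlap, and RPMI8226 was 2.29-fold over KMS11 (adjusted p = 0.000132) and 1.49-fold over U266 (0.00241). SRXN1, sulfiredoxin, which restores over-oxidised peroxiredoxins, read 7.29 and 7.39, 6.98 and 7.02, and 6.01 and 6.08. It was lowest in U266, 2.45-fold under RPMI8226 (4.41e-05) and 1.94-fold under KMS11 (0.000173). RPMI8226 minus KMS11, 0.34 (0.0106), was not called without the KMS11 control (0.36, 0.0529), KMS11 mimic (0.32, 0.0764) or RPMI8226 mimic array (0.32, 0.0582). PRDX6, the 1-cysteine peroxiredoxin that draws on glutathione, read 9.68 and 9.61, 9.19 and 9.23, and 8.89 and 8.84, highest in RPMI8226 by 1.72-fold over U266 (0.000381). U266 minus KMS11, -0.35 (0.0115), was not called without the KMS11 mimic (-0.29, 0.096) or U266 mimic array (-0.33, 0.0674). PRDX3, the mitochondrial form, was lower in RPMI8226 than in KMS11 (1.34-fold, 0.00516) and U266 (1.37-fold, 0.00349).

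In the thioredoxin group, TXNIP, which binds and inhibits thioredoxin and curbs glucose uptake, varied most. It read 10.32 and 10.29 in RPMI8226, 8.64 and 8.63 in KMS11, and 7.13 and 6.63 in U266. No line overlapped another: RPMI8226 exceeded U266 by 3.43 log2 units (SE 0.14, 10.8-fold, adjusted p = 1.01e-05) and KMS11 by 3.18-fold (0.000156), and KMS11 exceeded U266 by 3.38-fold (0.000142). Its second probe set gave the same order, with line means of 6.66, 4.78 and 2.89. The TXNIP promoter, chr1:145996580-145996829 on the minus strand (GRCh38.p14), is shown because it holds paired CACGAG boxes 5 bases apart, in capitals, the arrangement of the carbohydrate response element through which TXNIP follows glucose. The pattern, CACGAG, any 5 bases and CACGAG again, searched on both strands, was chosen after the sequence was seen. It was found in 2 of 27305 promoters (0.00732%).
TXNIP: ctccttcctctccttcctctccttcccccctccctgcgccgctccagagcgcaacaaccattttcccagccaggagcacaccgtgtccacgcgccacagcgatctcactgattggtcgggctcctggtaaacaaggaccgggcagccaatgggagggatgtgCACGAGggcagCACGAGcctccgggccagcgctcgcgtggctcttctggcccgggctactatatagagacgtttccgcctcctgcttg

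TXN, cytosolic thioredoxin, read 10.27 and 10.35 in RPMI8226, 11.11 and 11.13 in KMS11, and 10.59 and 10.52 in U266. TXNRD1, the cytosolic thioredoxin reductase, read 7.24 and 7.28, 8.12 and 7.98, and 7.21 and 7.28. Both were highest in KMS11: TXN by 1.75-fold over RPMI8226 (adjusted p = 0.000384) and 1.48-fold over U266 (0.00176), and TXNRD1 by 1.72-fold (0.000602) and 1.75-fold (0.000593). RPMI8226 minus U266 for TXN, -0.24 (0.0445), was not called in any of the 6 fits without 1 array, where it ranged from -0.30 to -0.18, nor without the filter (0.116). TXNRD2, the mitochondrial reductase, was lower in RPMI8226 than in KMS11 (1.65-fold, 0.000723) and U266 (1.44-fold, 0.00258). Its RPMI8226 mean lies under the filter value, so these folds are uncertain. TXN2, mitochondrial thioredoxin, did not pass the F test. TXNRD3, under the filter, read 5.63 and 5.52, 4.68 and 4.60, and 3.46 and 3.58, a step down in the same order of lines as TXNIP.

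Of 11 other thioredoxin-fold genes, 9 were tested and 8 passed the F test, where 82.4% of all tested genes did. TXNDC15 read 6.60 and 6.66 in RPMI8226, 6.56 and 6.46 in KMS11, and 7.27 and 7.28 in U266, so U266 was high, by 1.70-fold over KMS11 (adjusted p = 0.000546). TXNL1, a thioredoxin-like protein of the proteasome, read 8.82 and 8.78, 9.51 and 9.60, and 8.94 and 9.05, highest in KMS11 by 1.69-fold over RPMI8226 (0.000528). TXNL4B, a thioredoxin-like splicing factor, read 8.50 and 8.62, 8.35 and 8.37, and 7.77 and 7.81, lowest in U266 by 1.71-fold against RPMI8226 (0.000371). TXNDC17, a cytosolic thioredoxin-like reductase, read 5.10 and 4.86, 4.10 and 4.32, and 5.04 and 4.92. It was lowest in KMS11, by 1.71-fold against RPMI8226 (0.00248). Its KMS11 levels lie under the filter value, so that fold is uncertain. TXNDC16 read 5.57 and 5.90, 4.99 and 4.85, and 5.73 and 5.41, so RPMI8226 and U266 overlapped and both lay over KMS11. RPMI8226 minus KMS11 was 0.82 (0.00533) and 0.53 without the RPMI8226 mimic array. U266 minus KMS11, 0.65 (0.0135), was not called without the KMS11 mimic (0.58, 0.0671) or U266 control array (0.44, 0.0569). The F call of TXNDC11 (0.00673) was lost without the RPMI8226 mimic array (0.0543).

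All 4 glutaredoxins were tested. GLRX, the main cytosolic glutaredoxin, read 4.75 and 4.32 in RPMI8226, 5.51 and 5.60 in KMS11, and 5.34 and 5.32 in U266. GLRX3, which works in iron-sulfur cluster delivery, read 6.65 and 6.64, 7.66 and 7.63, and 7.60 and 7.57. RPMI8226 was low for both: GLRX by 2.03-fold against KMS11 (adjusted p = 0.00111) and 1.73-fold against U266 (0.00309), and GLRX3 by 2.00-fold (0.000126) and 1.92-fold (0.000146). The RPMI8226 mean of GLRX lies under the filter value, so the GLRX folds are uncertain. GLRX2, the mitochondrial form, was highest in KMS11, by 1.65-fold over U266 (0.00271); RPMI8226 minus KMS11, -0.57 (0.00684), was not called without the RPMI8226 control array (-0.52, 0.056). GLRX5 did not pass the F test.

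Catalase (CAT), which breaks down hydrogen peroxide in peroxisomes, read 7.64 and 7.59 in RPMI8226, 7.20 and 7.21 in KMS11, and 6.94 and 6.87 in U266. It was highest in RPMI8226, 1.64-fold over U266 (adjusted p = 0.000473) and 1.34-fold over KMS11 (0.0047). The U266 minus KMS11 difference, -0.30 (0.0186), was not called without either array of KMS11 or of U266 (-0.33 to -0.26) or without the filter (0.0583). HMOX1, the inducible heme oxygenase, read 6.01 and 6.06, 5.67 and 5.82, and 6.77 and 6.85. U266 was highest, 2.10-fold over KMS11 (0.000123) and 1.71-fold over RPMI8226 (0.000361). RPMI8226 minus KMS11, 0.29 (0.02), was not called without any 1 of those 4 arrays (0.25 to 0.33) or without the filter (0.0626).

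Genes around these systems were read from lists of related functions. Of 109 listed, 61 were named, 46 were tested and 34 passed the F test (73.9%), under the 82.4% of all tested genes. The counts of each list therefore describe lines that differ in most tested genes. Among regulators of NRF2, the factor that switches on many of the genes above, 6 of 7 tested genes passed: NFE2L2, which encodes NRF2, read 7.75 and 7.78 in RPMI8226, 8.80 and 8.72 in KMS11, and 7.35 and 7.16 in U266, whereas CUL3, part of the ligase that degrades NRF2, read 6.70 and 6.73, 7.31 and 7.36, and 8.09 and 8.13. NFE2L2 was thus highest in KMS11 and CUL3 in U266. In the list of glutathione turnover and export 3 of 5 passed; GGT7, a gamma-glutamyltransferase family member, read 5.07 and 5.05, 5.66 and 5.64, and 3.74 and 3.84, and LAP3, a leucine aminopeptidase, read 6.88 and 6.74, 6.64 and 6.76, and 8.35 and 7.92. GGT7 was lowest in U266 and LAP3 highest there.

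Of the genes that supply NADPH 5 of 8 passed; NADK2, the mitochondrial NAD kinase, read 5.88 and 5.99 in RPMI8226, 7.41 and 7.22 in KMS11, and 6.75 and 6.65 in U266, and TALDO1, transaldolase, read 6.22 and 6.12, 6.73 and 6.78, and 5.78 and 5.54. Both were highest in KMS11. Of the selenoprotein genes 10 of 15 passed; SEPHS1 read 8.18 and 8.25, 9.56 and 9.64, and 9.03 and 9.05, and SEPHS2, the selenophosphate synthetase, read 7.66 and 7.81, 8.76 and 8.80, and 7.64 and 7.51, again highest in KMS11. MSRB2, a methionine sulfoxide reductase of mitochondria and the single tested gene of its list, read 4.74 and 4.90, 7.62 and 7.86, and 5.77 and 5.66 (F test adjusted p = 1.21e-05), high in KMS11.

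Of the heme and iron genes all 3 tested passed; BLVRA and BLVRB, the biliverdin reductases, read 8.11 and 8.22, 7.39 and 7.45, and 6.73 and 6.82, and 8.09 and 8.03, 9.04 and 9.33, and 7.85 and 7.87. BLVRA was highest in RPMI8226 and BLVRB in KMS11. Of the other redox enzymes 6 of 7 passed; SESN2, a stress-induced sestrin, read 9.47 and 9.55, 9.53 and 9.44, and 7.35 and 7.50, low in U266, and QSOX1, a sulfhydryl oxidase, read 3.71 and 3.97, 5.48 and 5.56, and 5.44 and 5.27, low in RPMI8226. None of 8 named sources of superoxide and peroxide passed the filter, and no cystine or glutamate transporter of the list was named. With the mimic, 0 of the 46 passed.

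Of the plasma cell markers, IRF4 had line means of 10.54, 10.86 and 10.33 and XBP1 of 9.34, 9.65 and 9.55, in the order RPMI8226, KMS11, U266, and the coactivator POU2AF1 of 5.05, 5.13 and 4.93, near the filter in every line. CD38 had 9.95, 4.90 and 3.95 and SDC1 7.23, 5.62 and 9.49. MZB1 had 10.00, 7.99 and 6.15 and SLAMF7 3.56, 3.37 and 7.48. CD38, SDC1, MZB1 and SLAMF7 thus differed widely between the lines. The 7 named plasma cell markers summed to 55.5 to 55.8 log2 units in RPMI8226, 47.4 to 47.7 in KMS11 and 51.4 to 52.4 in U266. The 5 T cell and myeloid markers were all under the filter, with sums of 15.8 to 16.6 over the 6 arrays, and 4 B cell markers summed to 18.6 to 18.8 in RPMI8226, 16.87 to 16.89 in KMS11 and 17.3 to 17.4 in U266. The 4 stromal and epithelial markers summed to 26.4 to 26.5 in RPMI8226, 21.7 to 21.8 in KMS11 and 19.1 to 20.0 in U266, and 3 of them were higher in RPMI8226 than in either other line. EPCAM had line means of 8.84, 7.06 and 4.79 and KRT18 of 9.65, 7.49 and 7.69. EPCAM, KRT18 and KRT8 were highest in RPMI8226, as GPX7 was, and so were CD38, MZB1 and the B cell marker BLK. DCN was under the filter in every line (2.14, 2.04 and 2.20). EPCAM was also higher in KMS11 than in U266, whereas GPX7 was low in both. The part of these markers in the redox results was not tested. In bulk RNA, fewer cells of a type and less RNA per cell cannot be told apart.

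Against these differences between lines, the miR-10a mimic moved the redox genes little. In limma, with the line as a block and a threshold of 0.05 on the adjusted p, 0 of 38 redox genes were called, where 0% of all tested genes were. At an unadjusted p under 0.05, 2 of 38 were lower with the mimic (5.26%, against 5.42% of all tested genes), GSTT1 and TXNRD2. The mimic changes of the 38 had medians of -0.01 (RPMI8226), 0.04 (KMS11) and 0.01 (U266). Median absolute changes were 0.066, 0.088 and 0.072, under the 0.100, 0.103 and 0.099 of all tested genes. The limma 95% confidence interval of the mean change lay within 1.5-fold for 36 of 38 genes, against 97.6% of all tested genes. The exceptions were GSTT1 and GSTM4.

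GSTT1 had the largest mean change of the 62 redox genes. Its mimic array was below its control array in every line, with differences of -0.76 for RPMI8226, -0.30 for KMS11 and -0.84 for U266. The mean change was -0.63 ± 0.29 (SD, n = 3 lines), or 1.55-fold lower. Limma gave a 95% interval of -0.92 to -0.34. That interval uses a variance drawn towards those of all tested genes and does not rest on the SD of the 3 lines alone. The unadjusted limma p was 0.0019 and the adjusted p 0.889, so the change failed the correction over all tested genes. Without RPMI8226, KMS11 or U266 the mean was -0.57, -0.80 or -0.53. It was also the only tested redox gene at least 1.5-fold lower in RPMI8226 (1 of 38, background 0.497%), and with GSTM4 it made up the 2 of 38 in U266 (background 0.524%). In KMS11 no tested redox gene moved 1.5-fold (background 0.43% higher and 0.443% lower), and none was 1.5-fold higher in RPMI8226 or U266 (0.551% in each). The levels of GSTT1, 3.87 to 5.85, lie close to the filter.

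TXNRD2 was also lower in every line, by -0.41, -0.24 and -0.25. Its levels were 4.66 and 4.25 in RPMI8226, 5.30 and 5.05 in KMS11, and 5.11 and 4.85 in U266. The mean was -0.30 ± 0.10 (SD, n = 3 lines). In limma the 95% interval, from the same kind of variance, was -0.48 to -0.13, the unadjusted p 0.00581 and the adjusted p 0.889. GSTM4 changed by -0.16, 0.03 and -0.71 and TXNIP by -0.04, -0.01 and -0.50, so both means rested on U266. The GSTM4 mean of -0.28 ± 0.39 became -0.06 without U266 and -0.43 without KMS11, and the TXNIP mean of -0.18 ± 0.27 became -0.02. The second TXNIP probe set changed by 0.30, 0.04 and -0.43.

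Genes that read higher with the mimic differed by less. GSTP1 changed by 0.01, 0.30 and 0.16 in RPMI8226, KMS11 and U266 (mean 0.16 ± 0.14). GSTA4 changed by 0.31, 0.09 and 0.03 (0.15 ± 0.15) and GPX1 by 0.02, 0.10 and 0.25 (0.12 ± 0.12). Each of these means leaned on 1 line: it was 0.084 for GSTP1 without KMS11, 0.062 for GSTA4 without RPMI8226 and 0.059 for GPX1 without U266. GPX7 changed by -0.06, 0.23 and 0.01 (0.06 ± 0.15), and its mean was -0.026 without KMS11 and 0.119 without RPMI8226. In limma over all named genes, without the filter, the adjusted p was 0.967 for GSTP1 and 0.978 for GPX7. In all, 9 of 38 were higher with the mimic in all 3 lines (23.7%, background 12.7%) and 4 were lower (GLRX3, GSTT1, TXNIP and TXNRD2; 10.5%, background 13.8%).

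Below the filter the changes scattered more. GSTTP2, a theta-class pseudogene, changed by 0.15, -0.36 and 0.64, GSTO1, an omega-class transferase, by 0.56, -0.15 and 0.16, and GSTM3 by -0.16, -0.51 and 0.39. GSTTP2 in U266 was the single gene under the filter past 1.5-fold (background 1.15% higher in U266). The other 30 tested redox genes had mean changes of -0.12 to 0.10, and the widest in any line was that of GLRX, 0.43 lower in RPMI8226.

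Whether the mimic acted differently in 1 line than in the other 2 was tested with an interaction term, a fit with 1 residual degree of freedom. No redox gene passed in any line (0 of 38, as 0% of all tested genes), with smallest adjusted limma p-values of 0.748 for RPMI8226, 1.00 for KMS11 and 0.550 for U266. The smallest, for U266, was that of GSTM4 (unadjusted p = 0.00682). TXNIP in U266 differed from the other lines by -0.47 (unadjusted p = 0.024, adjusted 0.736), and GSTT1 in KMS11 by 0.50 (0.0229, adjusted 1.00).

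**Figure D4:**
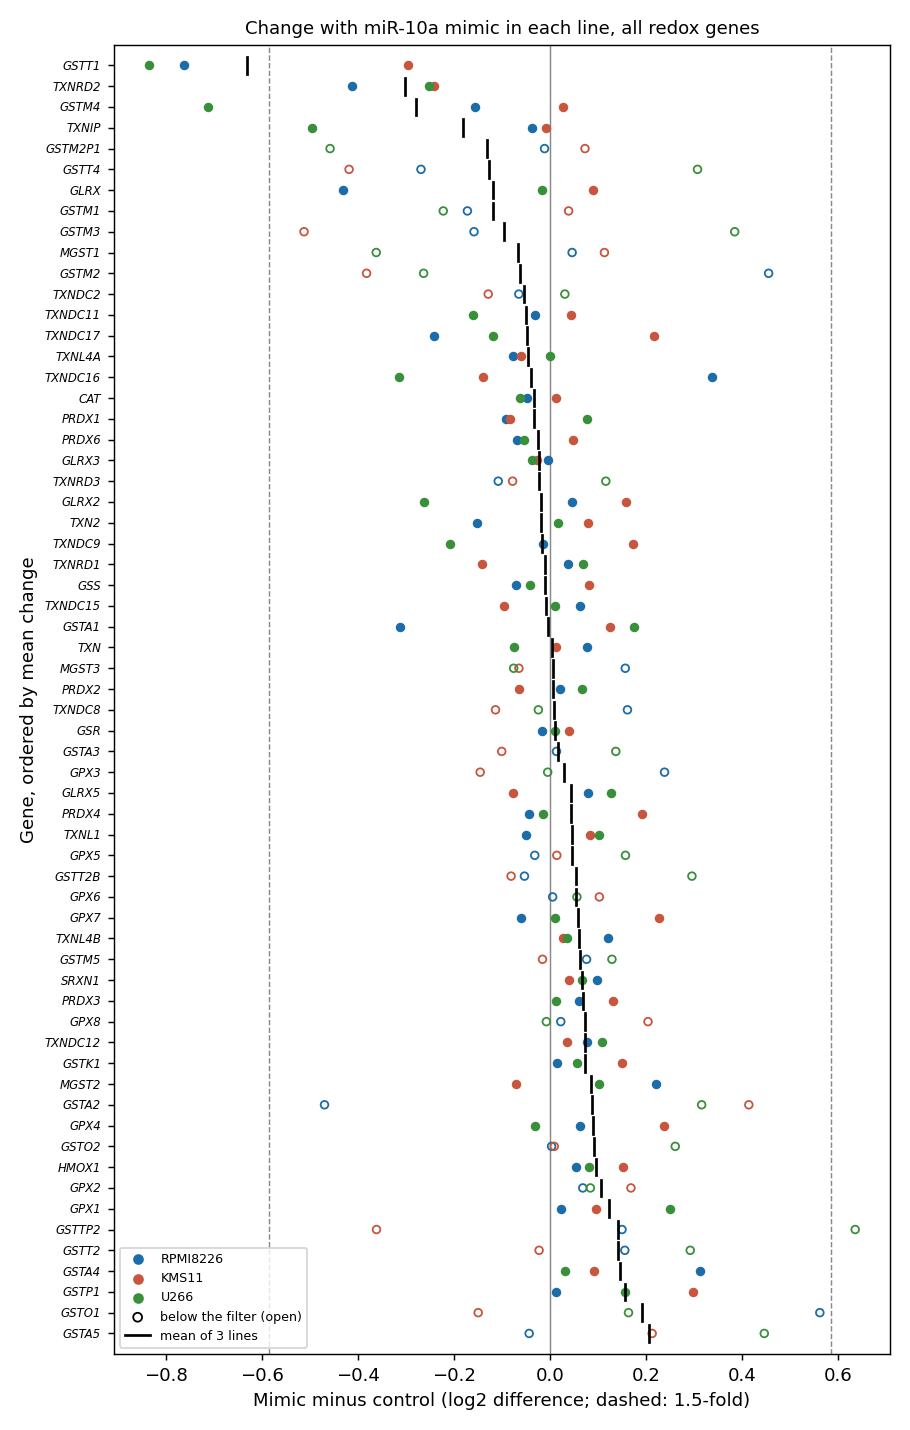
Mimic minus control (log2 difference, horizontal axis) of all 62 redox genes in each line, ordered by mean change. Filled points are tested genes, open points genes under the filter, black bars the mean of the 3 lines and dashed lines 1.5-fold; GSTT1 lies lowest, with RPMI8226 and U266 past 1.5-fold, while most genes cluster around 0.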

How the data were processed

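Expression in 6 arrays (3 lines, each with 1 scrambled-control and 1 miR-10a mimic array; dose 100 nM, 48 h) was read from the table the authors deposited, which holds log2 expression values for 53617 probe sets. Per the submitters' processing notes, Affymetrix Expression Console 1.3.0 was used; background correction, normalization, summarization and build are not given in those sources. The platform annotation named 16098 probe sets with 1 symbol (0 with several, 37519 unnamed), standing for 14884 genes. All 16098 gene identifiers matched RefSeq (GRCh38.p14). The probe set with the highest mean stood for a gene.

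Genes with a mean of at least 4.70, the median of named genes, were tested (7442) with limma 3.58.1 in R 4.3.3, lmFit and eBayes without trend, two-sided, Benjamini-Hochberg adjustment over all tested genes at 0.05. The mimic fit had the cell line as a block (2 residual and 3.82 prior degrees of freedom); line comparisons kept treatment as a term. The pairing comes from the lines: deviations of arrays of 1 line correlated at 0.970 (RPMI8226), 0.967 (KMS11) and 0.970 (U266). The fits were tested on simulated data. Genes were named by range of line means (24 genes past the F test) and by mimic change (6 with 1 direction, 6 widest in a line), with GSTT1 and GPX7; other members are named in counts. The members and lists were chosen with earlier results of these data known.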

Additional observations from a re-analysis of the deposited data

How the results depend on the processing

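Alternatives were no filter or only the upper 25% of genes, median centring, quantile normalization, the mean of a gene's probe sets, an intensity trend, dropping the treatment or line term, and leaving out arrays or lines. Of the recomputed counts of called redox genes, 64 stayed within 1.5 times their value or stayed at 0, and 1 did neither. The counts that stayed at 0 were those of the mimic and interaction tests, so only the other counts could move downwards. The count that moved was that of the F test in the upper 25% of genes. It was 21, because only 21 of the 38 were tested there. Without 1 array in turn, the F test called 33 to 35, RPMI8226 against KMS11 23 to 30, RPMI8226 against U266 23 to 25 and U266 against KMS11 22 to 25; without 1 line in turn, the mimic test called 0 to 0. Without the cell line as a block the mimic test also called 0, with a smallest adjusted p of 1.0. At an unadjusted p under 0.05 it had 0 redox genes, against 2 with the block. That fit leaves the differences between lines in the residual spread, so its 0 calls do not test the result. Over all alternatives the smallest adjusted p of a redox gene with the mimic ran from 0.624 to 1.0. One change reversed: that of GPX7 with the mimic was -0.026 without KMS11 and up to 0.119 without RPMI8226; the KMS11 pair alone differed by 0.23. With 6 arrays and no detection calls, small differences and the levels of genes near 4.70 are uncertain.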
